A study of Mus musculus with 18 samples.

Results

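Collagens are the structural proteins of the extracellular matrix, and a collagen molecule is built of 3 chains wound into a triple helix, with a gene for each kind of chain. The genes described here are the collagen chain genes of the mouse, taken as every gene whose symbol is Col, a type number, the letter a and a chain number, and which had a probe set naming that gene alone. There were 44 of them among 19938 genes with such a probe set, and Col6a5 and Col6a6, which had 2 each, were read from the brighter one. RNA came from floated adipocytes of male C57BL/6J mice on standard chow, with no transgene, mutation or drug in any group. Cells of both depots came from the same mice. Bone marrow adipocytes of 6, 14 and 18 months were set against epididymal white adipocytes (peripheral in the deposited labels) of 6, 14 and 18 months, on 3 Affymetrix gene arrays in each of the 6 groups. The 3 RNA preparations of a group were pools from 6 to 10 animals, so the errors given are those of pools, and nothing in the sources says that no animal gave RNA to more than 1 pool. Marrow cells were flushed from femurs and tibias, whereas the fat pad was digested with collagenase before flotation, and neither preparation was sorted by surface markers.

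The fibrillar collagens (types I, II, III, V and XI, with the later found XXIV and XXVII) pack into the rope-like fibrils that carry tension. Type IV chains form the sheet of basement membranes, which in white fat surrounds every adipocyte and every capillary, and types XV and XVIII sit at the edge of that sheet. Type VI forms beaded filaments close to fat cells, the fibril-associated collagens with interrupted helices (FACITs) coat fibrils, types VIII and X form hexagonal nets, and a few collagens span the cell membrane. In fat, fibrillar collagen is known chiefly as a product of fibroblasts and progenitors, and in bone as the main protein that osteoblasts lay down.

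The values are log2 signals after gcRMA and quantile normalization, so a difference of 1 is a doubling. Levels of different probe sets are not compared as amounts. Differences of chains within an array are read only as shifts between ages, and a mean below the median probe set only as low signal. Over the 23410 tested probe sets the median SD between the 3 arrays of a group was 0.0972 to 0.219, and for the 44 collagen genes 0.0956 to 0.181. Of the collagen genes, 19 in bone marrow and 13 in epididymal adipocytes had a mean below the median probe set, the 13 being low in both, and 42 reached the median of all values in at least 1 group. The 8 mature adipocyte markers (Adipoq, Plin1, Cidec, Lep and others) averaged 6.31 to 7.26 on the bone marrow arrays and 12.4 to 12.8 on the epididymal arrays, and Lep, the leptin gene, read 3.98 to 5.59 on the bone marrow arrays and at least 12.66 on each epididymal array. The median of an array lay between 5.33 and 5.65, so leptin was near or below it in bone marrow, while Adipoq, the adiponectin gene, read 6.43 to 9.05 there. The 8 neutrophil markers averaged 11.95 to 12.60 on bone marrow arrays and 4.72 to 9.14 on epididymal arrays, where replicate 1 at 6 months was highest. In mixed preparations fewer cells of a type and less RNA per cell cannot be told apart.

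The start regions of 4 chains are shown: those of Col4a1 and Col4a2, which lie together and had nearly the same values, and those of the fibril chains Col1a2 and Col3a1. RefSeq (GRCm38.p6) gave a window of 250 bases before to 50 after the start for 35 of the 44 genes. Capitals mark the TATA box TATAAA, the CCAAT box CCAAT and the GC box GGGCGG on either strand, a CCAAT on the other strand appearing as ATTGG and a GC box as CCGCCC. The head-to-head pair Col4a1 and Col4a2 is transcribed in opposite directions from 1 stretch of chromosome 8, and their windows, chr8:11312777-11313076 on the minus strand and chr8:11312555-11312854 on the plus strand, share 78 bases.
Col4a1: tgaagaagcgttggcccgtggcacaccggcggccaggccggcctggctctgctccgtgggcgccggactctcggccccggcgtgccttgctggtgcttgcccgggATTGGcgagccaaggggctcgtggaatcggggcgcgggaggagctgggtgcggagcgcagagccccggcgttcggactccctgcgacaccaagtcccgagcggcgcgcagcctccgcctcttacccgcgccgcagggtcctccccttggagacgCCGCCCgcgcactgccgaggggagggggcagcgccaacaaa
Col4a2: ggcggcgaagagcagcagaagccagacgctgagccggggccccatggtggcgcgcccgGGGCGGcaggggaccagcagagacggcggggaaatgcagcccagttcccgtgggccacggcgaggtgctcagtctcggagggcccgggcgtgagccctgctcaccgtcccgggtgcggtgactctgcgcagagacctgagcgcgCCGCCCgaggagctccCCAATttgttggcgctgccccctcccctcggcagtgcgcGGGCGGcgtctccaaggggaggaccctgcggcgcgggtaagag
Col1a2 (chr6:4505368-4505667, plus strand) and Col3a1 (chr1:45311288-45311587, plus strand) encode fibril chains that were both higher at 14 than at 6 months in epididymal adipocytes and both lower at 18 than at 14 months.
Col1a2: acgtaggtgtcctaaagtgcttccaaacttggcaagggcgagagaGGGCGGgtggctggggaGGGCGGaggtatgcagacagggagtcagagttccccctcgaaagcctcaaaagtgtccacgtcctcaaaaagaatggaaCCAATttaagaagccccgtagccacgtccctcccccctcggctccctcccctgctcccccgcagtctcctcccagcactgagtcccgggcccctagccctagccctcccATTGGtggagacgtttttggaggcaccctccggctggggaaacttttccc
Col3a1: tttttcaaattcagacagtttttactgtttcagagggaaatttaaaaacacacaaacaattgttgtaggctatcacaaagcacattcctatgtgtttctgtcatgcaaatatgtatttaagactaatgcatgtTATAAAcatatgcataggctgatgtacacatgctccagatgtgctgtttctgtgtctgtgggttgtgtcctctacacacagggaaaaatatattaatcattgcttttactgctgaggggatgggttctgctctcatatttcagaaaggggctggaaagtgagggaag
Over the 38 windows of these 35 genes, 60.5% held a GC box, 34.2% a CCAAT box and 13.2% a TATA box, beside 35.7%, 37.4% and 13.6% of all 32851 windows. These are matches of letters only.

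Set against epididymal adipocytes over the 3 ages, bone marrow adipocytes had lower values for 16 of the 44 collagen genes (36.4%) and higher values for 0, where a call needs an adjusted p under 0.05 and a change of at least 2-fold (limma, 9 arrays of each cell type). Of all probe sets 11.6% were lower and 10.2% higher by the same rule. The median log2 fold change was -0.37 over the collagen genes and -0.02 over all probe sets. On 17 collagen genes (38.6%) every bone marrow array lay below every epididymal array, as on 15.3% of all probe sets, and on 0 did every bone marrow array lie above, as on 12.4%. At an unadjusted p under 0.05 with no fold limit 0 were higher and 29 lower, and ordinary analysis of variance gave 0 higher as well. The differences above 0 were those of Col8a1 (0.28), Col9a2 (0.13) and Col10a1 (0.09). The 16 were 6 of 11 fibrillar genes, 2 of 6 type IV genes, both multiplexins (types XV and XVIII), 4 of 6 type VI genes and 2 of 9 FACITs. No gene of the short-chain, transmembrane and remaining classes was among them.

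**Figure D1:**
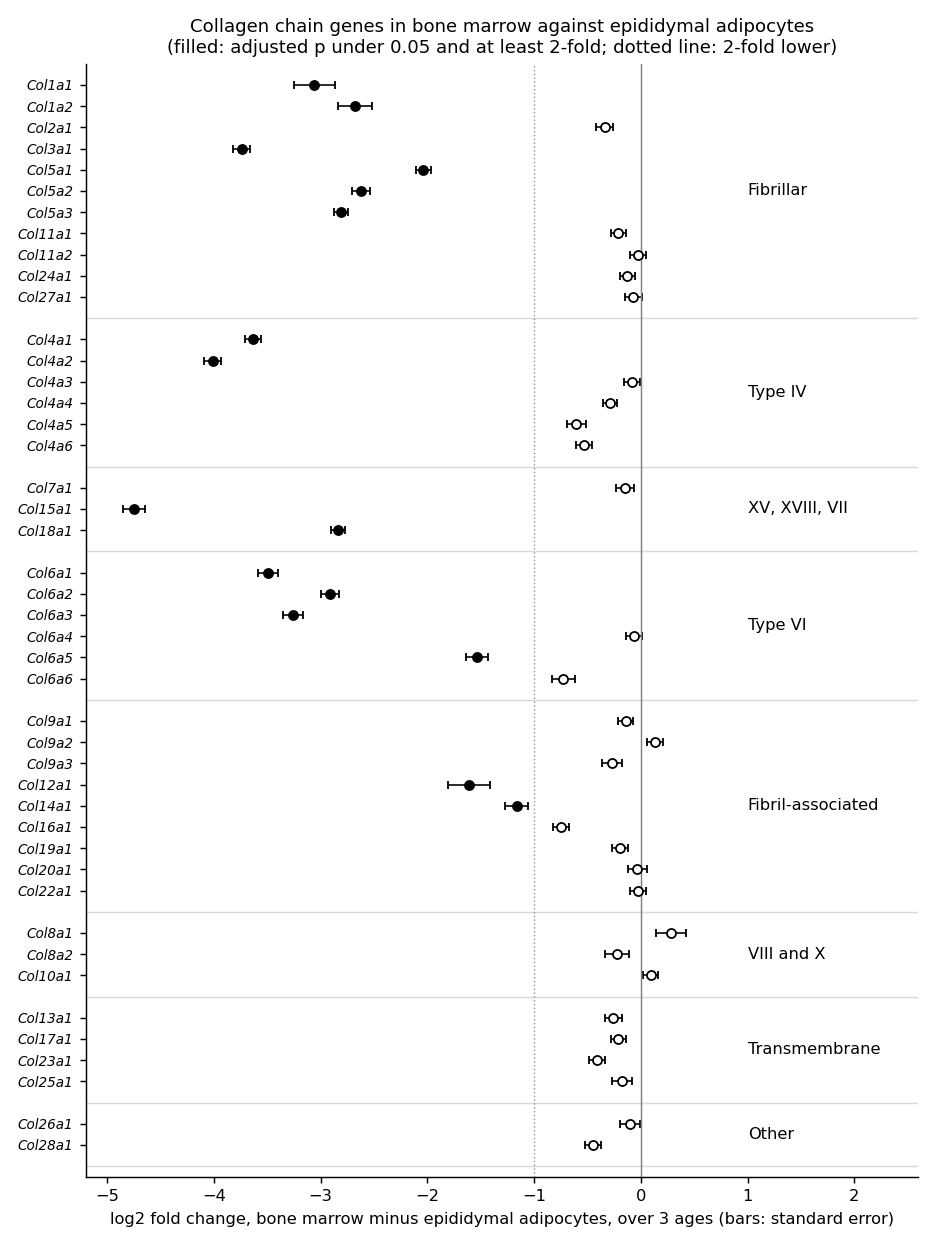
Log2 fold change of each of the 44 collagen chain genes, bone marrow minus epididymal adipocytes over 3 ages, with standard error, grouped by class; filled points passed the test at 2-fold or more. The filled points run from -4.75 for Col15a1 to -1.16 for Col14a1, and no gene passed on the right of 0.

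Col15a1 and Col4a2, both of the basement membrane zone, had the largest differences of the 44 genes. Col15a1, the type XV multiplexin that links basement membranes to the fibrils beside them, had a lowest, median and highest value of 5.14, 5.67 and 6.00 on the bone marrow arrays, against 9.89, 10.35 and 10.94 on the epididymal arrays. The difference of the normalized values was 26.9-fold (log2 fold change -4.75, standard error 0.10, adjusted p = 3.56e-18). Its bone marrow mean, like those of Col5a2, Col6a5, Col12a1 and Col18a1, lay below that of the median tested probe set (5.96) and is not shown to be above background, so the true fold of these 5 genes may be larger than printed. Col4a1 and Col4a2 encode the chains of the common type IV network. For Col4a2 the bone marrow arrays read 5.81, 6.23 and 6.73 (lowest, median, highest) and the epididymal arrays 9.99, 10.31 and 10.39. For Col4a1 they read 6.15, 6.48 and 7.10 against 9.93, 10.10 and 10.51. The pair thus differed by nearly the same amount, 16.1-fold (-4.01) and 12.4-fold (-3.64). Col18a1, whose chain releases the endothelial inhibitor endostatin, read 5.55, 5.79 and 6.14 against 8.43, 8.58 and 8.96, a difference of 7.15-fold (-2.84). Col7a1, of the anchoring fibrils of skin, differed by -0.15 and did not pass.

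The other 4 type IV genes, which serve basement membranes of kidney, lung and smooth muscle, behaved otherwise. Col4a3 and Col4a4 had log2 fold changes of -0.08 and -0.29, and Col4a5 and Col4a6 of -0.61 and -0.53. All 9 bone marrow arrays lay below the epididymal arrays for Col4a4 (5.75 to 6.05 against 6.05 to 6.47), though by less than 2-fold.

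Type VI, the filament that lies close to fat cells, was lower in bone marrow in its 3 classical chains. Col6a1 read 6.30, 6.87 and 7.80 in bone marrow (lowest, median, highest) and 10.09, 10.44 and 10.88 in epididymal adipocytes. Col6a2 read 6.35, 6.87 and 7.30 against 9.45, 9.80 and 10.05, and Col6a3, the chain from which endotrophin is cut, 5.61, 5.99 and 6.70 against 8.82, 9.21 and 9.79. No array of one cell type reached the range of the other, and the differences were 11.2-fold (-3.49), 7.52-fold (-2.91) and 9.56-fold (-3.26). Of the 3 chains that can stand in for the third, Col6a5 had -1.54 (2.90-fold lower) with overlapping arrays (5.64 to 6.40 against 6.19 to 9.08). Col6a6 had -0.73 and Col6a4 -0.07, and neither passed at 2-fold on the probe set read. The second, dimmer probe sets of Col6a6 and Col6a5 gave -1.25 and -2.97, both called lower.

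Among fibrillar genes, Col3a1, the type III chain of pliable tissue, read 6.16, 6.40 and 6.81 in bone marrow against 9.37, 10.13 and 11.18 in epididymal adipocytes, 13.4-fold apart (-3.74, standard error 0.078, adjusted p = 2.72e-18). Type I is the bulk collagen of bone, tendon and scar. Its Col1a1 chain read 7.55, 8.11 and 10.37 in bone marrow against 10.60, 11.58 and 12.10 in epididymal adipocytes, and its Col1a2 chain 7.68, 8.47 and 9.82 against 10.81, 10.998 and 12.03. Both sets of arrays were apart, but for Col1a1 by only the step between 10.37 and 10.60. The differences were 8.35-fold (-3.06, standard error 0.19) and 6.41-fold (-2.68, standard error 0.16), with wider errors than any other chain but Col12a1. Type V collagen starts fibrils and sets their width. Col5a1 differed by 4.11-fold (-2.04, with 6.10 to 6.72 against 8.23 to 8.88), Col5a2 by 6.17-fold (-2.63, 5.59 to 6.18 against 8.30 to 8.85) and Col5a3 by 7.01-fold (-2.81, 6.17 to 6.66 against 8.93 to 9.62).

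The fibrillar genes of cartilage were not among those called: Col2a1 had -0.34, Col11a1 -0.21 and Col11a2 -0.03, and Col24a1 and Col27a1 had -0.13 and -0.07. Col9a1, Col9a2 and Col9a3, the FACITs of cartilage fibrils, had -0.14, 0.13 and -0.27, and Col10a1 of growth plate cartilage 0.09. The 7 chondrocyte markers averaged 4.53 to 4.91 over all arrays of both cell types, below every array's median.

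**Figure D2:**
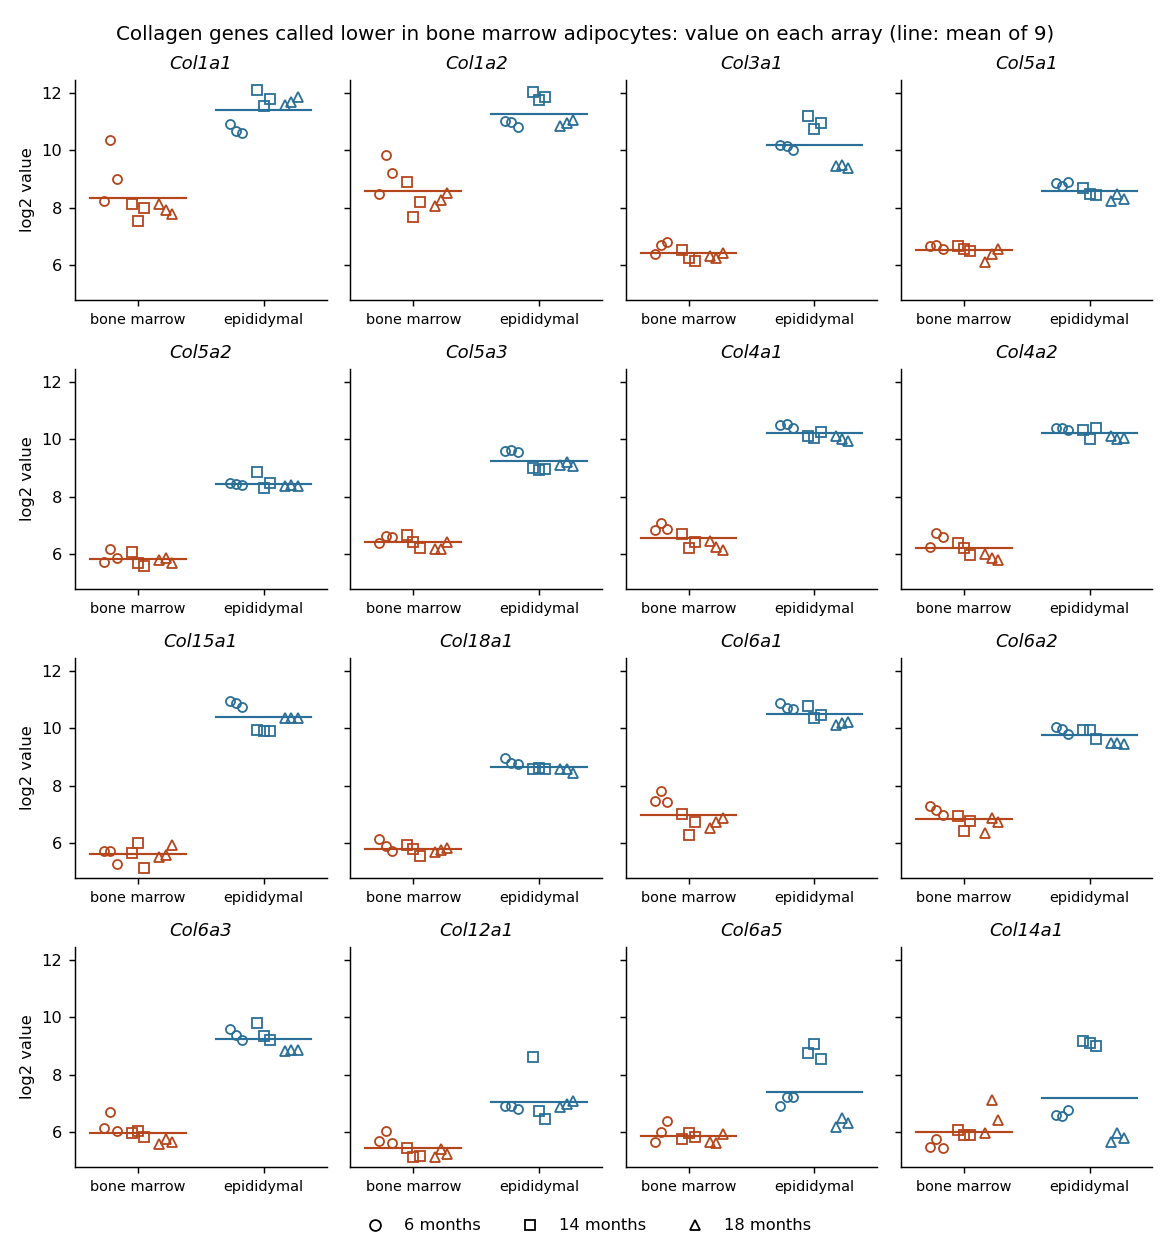
Log2 value on each array of the 16 collagen genes called lower in bone marrow adipocytes; bone marrow is left and epididymal right in each panel, symbols give the age, and lines are means of 9 arrays. In 14 panels the cell types do not overlap, and in those of Col6a5 and Col14a1 they do.

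Col12a1 and Col14a1 are FACITs that bind along type I fibrils, and both were lower in bone marrow. Col12a1 read 5.13, 5.40 and 6.06 in bone marrow against 6.47, 6.91 and 8.60 in epididymal adipocytes (-1.61, 3.05-fold). The highest of these values, 8.60, was a single 14-month array beside 6.74 and 6.47 in the same group. Col14a1 overlapped, at 5.44 to 7.13 against 5.66 to 9.16, and its mean difference was -1.16. With the 14-month epididymal arrays left out of the fit, the difference is the mean of 6 and 18 months, without the 14-month bone marrow arrays too. It was then -0.18 for Col14a1 (adjusted p = 0.319) and -0.83 for Col6a5 on its brighter probe set, and the other 14 genes kept the call at 2-fold. At 6 months alone the difference of Col14a1 was -1.08 and called. Col16a1 (-0.75), a FACIT of the skin and gut, and the transmembrane Col23a1 (-0.41) had all bone marrow arrays lower by less than 2-fold.

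At 6 months, 16 collagen genes were lower in bone marrow (11.8% of all probe sets were) and 1 was higher (11.4%). At 14 months 19 were lower and 0 higher (11.5% and 9.91% of all), and at 18 months 14 were lower and 0 higher (12.9% and 10.9% of all). At an unadjusted p under 0.05, 1 was higher at 14 and 2 at 18 months, and ordinary analysis of variance gave 0 at both. The 16 of 6 months were those of the mean over ages. Col4a5, Col4a6 and Col6a6 joined them at 14 months, with -1.25, -1.07 and -1.62, and at 18 months Col6a5 and Col14a1 fell out, with -0.58 and 0.71. Of these, the call of Col4a6 at 14 months was lost without epididymal 14-month replicate 2 (-0.93), and that of Col6a5 at 6 months without bone marrow 6-month replicate 1 (-0.90). The second probe set of Col6a5 was called lower at each age, 18 months included, with -2.13 at 6, -5.21 at 14 and -1.58 at 18 months. The 1 gene that was higher in bone marrow was Col8a1, a chain of the net under corneal and vascular endothelium. At 6 months it read 7.18, 7.23 and 7.06 in bone marrow against 5.63, 6.42 and 6.26 in epididymal adipocytes, 2.08-fold apart (1.05, adjusted p = 0.0011). Its call was lost without epididymal 6-month replicate 1 (0.82), with array weights (0.96) and with ribosomal protein genes set equal (0.20), and at 14 and 18 months its differences were -0.76 and 0.55. When ribosomal protein genes were set equal between arrays, which moved the median of all probe sets to -0.70, no called direction turned and 23 genes were lower over the ages.

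In epididymal adipocytes, collagen genes were called in both directions at 14 months, the lower ones at no more than the share of all probe sets. Against 6 months, 9 were higher at 14 months (20.5%, against 10.2% of all probe sets) and 3 were lower (6.82% against 7.51%), at an adjusted p under 0.05 with 3 arrays a group. With ribosomal protein genes set equal, which put the median of all probe sets at -0.26, 7 were higher and 7 lower. No fold limit applies to changes with age or to their difference between the cell types. Fibril chains and the FACIT Col14a1 were among those that rose, and the basement membrane zone chain Col15a1 among those that fell.

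Col14a1 changed most. Its 3 arrays read 6.61, 6.55 and 6.76 at 6 months, 9.16, 9.11 and 8.98 at 14 months and 5.66, 5.96 and 5.79 at 18 months. The 3 ages did not overlap, with 14 months highest and 18 months lowest. The rise at 14 months was 5.45-fold (2.45, standard error 0.19, adjusted p = 3.61e-08), and 18 months stood below 6 months by 1.78-fold (-0.83, adjusted p = 0.00611). Col6a5 had the same order of ages, with 6.90, 7.21 and 7.21 at 6 months, 8.75, 9.08 and 8.56 at 14 months and 6.19, 6.49 and 6.30 at 18 months. It was 3.23-fold higher at 14 than at 6 months (1.69, adjusted p = 9.00e-07). Its second probe set gave 3.01 for the same change. For Col3a1 the arrays read 10.19, 10.13 and 10.01, then 11.18, 10.74 and 10.95, then 9.45, 9.50 and 9.37. That is a rise of 1.80-fold at 14 months (0.85, adjusted p = 1.68e-04) and a level 1.59-fold below the start at 18 months (-0.67, adjusted p = 0.0023).

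Of the type I chains, Col1a2 returned to its 6-month level at 18 months and Col1a1 stayed above it. Col1a1 read 10.89, 10.66 and 10.60 at 6 months, 12.10, 11.53 and 11.77 at 14 months, and 11.58, 11.68 and 11.84 at 18 months, so both older ages lay above all of the 6-month arrays. Its changes from 6 months were 1.08 at 14 months (adjusted p = 0.0296) and 0.98 at 18 months, the second not called. Col1a2 read 10.998, 10.97 and 10.81, then 12.03, 11.73 and 11.86, then 10.84, 10.96 and 11.04, with changes of 0.95 (adjusted p = 0.0216) and 0.02. The calls at 14 months were not firm for either chain. That of Col1a1 was lost without epididymal 14-month replicate 1 (0.93) or replicate 3 (1.10) and without 6-month replicate 2 (1.05) or replicate 3 (1.02), and that of Col1a2 without epididymal 14-month replicate 1 (0.87) and without 6-month replicate 2 (0.97) or replicate 3 (0.89). The 18-month change of Col1a1 passed under 7 alternatives, among them median centring of the arrays (1.16).

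Measured within an array, Col1a1 minus Col3a1 was 2.13, 2.18 and 2.47 at 18 months and 0.70, 0.54 and 0.59 at 6 months, a shift of 1.65. Col1a1 minus Col1a2 was 0.74, 0.72 and 0.79 at 18 months and -0.11, -0.31 and -0.21 at 6 months, a shift of 0.96. Neither pair overlapped between the ages, and an exact two-sided permutation test gave p = 0.1 for each, the smallest that 3 arrays against 3 allow. These pairs were chosen after the values were seen, so the test adds no evidence for the shifts.

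The rest of the rise at 14 months was Col8a1 (0.95), Col6a6 (0.83), Col4a5 (0.65) and Col4a6 (0.44). Col8a1 read 5.63, 6.42 and 6.26 at 6 months, 7.51, 7.09 and 6.56 at 14 months and 5.54, 5.74 and 5.53 at 18 months, and lost its call at 14 months without epididymal 6-month replicate 1 (0.71) or 14-month replicate 1 (0.72). Col4a5 and Col4a6 lie head to head on the X chromosome and rose together. The call of Col4a6 was lost without epididymal 6-month replicate 1 (0.34) or replicate 2 (0.42) and without 14-month replicate 2 (0.31).

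Set against these stood Col15a1, which read 10.94, 10.87 and 10.72 at 6 months, 9.94, 9.91 and 9.89 at 14 months and 10.36, 10.35 and 10.35 at 18 months. It fell by 0.93 on the log2 scale at 14 months (1.90-fold, adjusted p = 8.29e-04), and its change at 18 months, -0.49, was not called. Col5a3, a type V chain, read 9.57, 9.62 and 9.56, then 8.98, 8.93 and 8.95, then 9.11, 9.20 and 9.08, and was lower at both older ages, by 1.55-fold at 14 months (-0.63, adjusted p = 6.93e-04) and 1.37-fold at 18 months (-0.45, adjusted p = 0.0129). Col9a2 read 6.54, 6.85 and 7.01, then 6.41, 6.35 and 6.44, then 6.21, 6.41 and 6.51, and its small fall of -0.40 at 14 months was lost in 17 of 29 alternatives. The classical type IV and type VI chains did not pass at 14 months, with -0.33 for Col4a1, -0.13 for Col4a2, -0.23 for Col6a1, -0.10 for Col6a2 and 0.06 for Col6a3, and nor did Col5a1 (-0.29), Col5a2 (0.11) and Col18a1 (-0.24).

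At 18 months 12 collagen genes were lower than at 6 months in epididymal adipocytes (27.3%, against 8.01% of all probe sets) and 0 were higher (8.22% of all), where 1, Col1a1, was higher at an unadjusted p under 0.05 and ordinary analysis of variance called 0. Beside Col14a1, Col6a5, Col3a1 and Col5a3 these were all 3 classical type VI chains, Col6a1 (-0.58), Col6a2 (-0.46) and Col6a3 (-0.54), with Col4a1 (-0.45), Col5a1 (-0.49), Col27a1 (-0.56), Col13a1 (-0.46) and Col9a2 (-0.42). The arrays of Col6a3 show the size of such a change: they read 9.59, 9.37 and 9.21 at 6 months, 9.79, 9.34 and 9.21 at 14 months and 8.82, 8.86 and 8.87 at 18 months. For Col5a1 they read 8.86, 8.74 and 8.88, then 8.68, 8.49 and 8.45, then 8.23, 8.47 and 8.30. Those of Col6a1 read 10.88, 10.68 and 10.67, then 10.75, 10.36 and 10.44, then 10.09, 10.19 and 10.22, and those of Col6a2 10.05, 9.95 and 9.80, then 9.92, 9.94 and 9.62, then 9.48, 9.50 and 9.45. For these 4 genes the 18-month arrays lay below every 6-month array. They were taken from the genes already called lower, so this is no separate evidence, and the share over all probe sets was not counted. Of the 12 calls, those of Col14a1, Col6a5 and Col3a1 held without any 1 array, and the other 9 were lost without at least 1, among them Col6a1 without epididymal 6-month replicate 1 (-0.51), Col6a3 without 6-month replicate 1 (-0.44), and Col5a1 (-0.44) and Col5a3 (-0.44) without 18-month replicate 1. With the arrays centred on their medians, which put the median of all probe sets at 0.12, 5 genes passed, 4 lower and Col1a1 higher. Without epididymal 18-month replicate 1 the count was 5, without replicate 2 it was 6, and without 6-month replicate 2 it was 7.

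At 18 against 14 months 14 collagen genes were lower (31.8%, against 12.5% of all probe sets) and 0 higher (11.7% of all), with 1 higher, Col15a1, at an unadjusted p under 0.05 and 0 by ordinary analysis of variance. Col14a1 fell by 3.28 (9.71-fold), Col6a5 by 2.47, Col3a1 by 1.52, Col8a1 by 1.45, Col6a6 by 1.30 and Col4a5 by 1.05 on the log2 scale. Median centring put the median of all probe sets at 0.25 and gave 3 higher (Col15a1, Col5a3 and Col6a4) and 8 lower. Without epididymal 18-month replicate 1, 8 genes were called, and Col1a2, which fell by 0.93, was lost (-0.87).

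**Figure D3:**
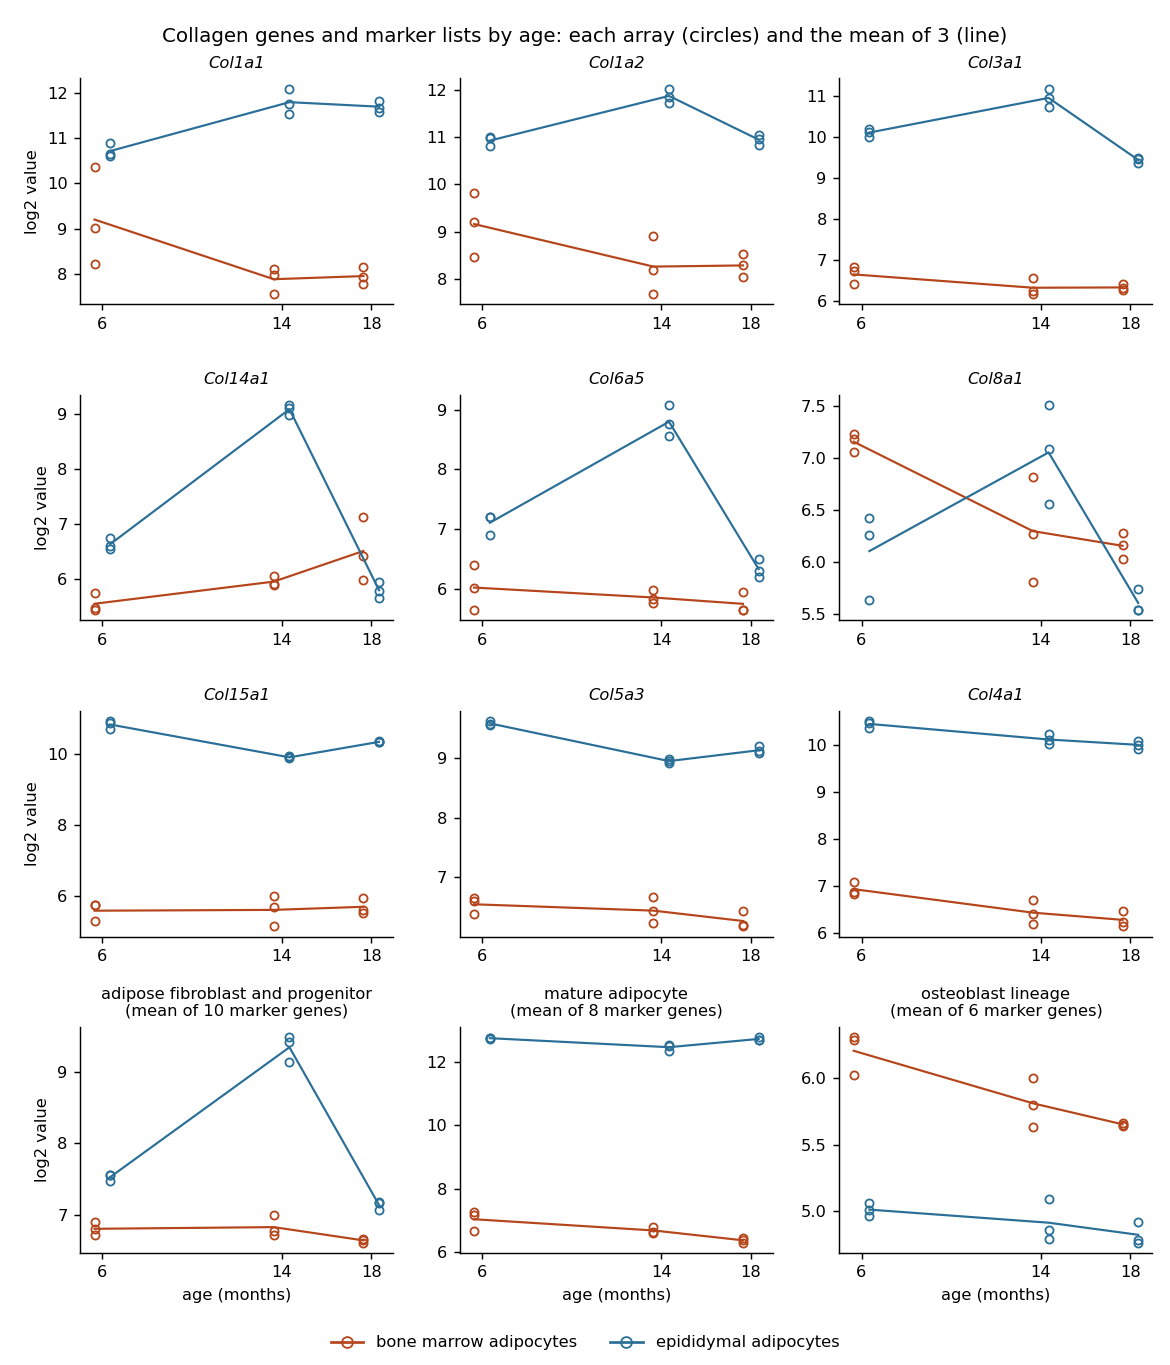
Log2 values by age in months of 9 collagen genes and the mean of 3 marker lists, bone marrow and epididymal adipocytes, with each array as a circle and the mean of 3 as a line; the vertical scale differs between panels. Epididymal Col14a1 and the fibroblast and progenitor list peak at 14 months, and Col15a1 and Col5a3 are lowest there.

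Markers of other cells moved with these ages. Of all probe sets 10.2% rose and 7.51% fell at 14 against 6 months, and 8.22% and 8.01% at 18 against 6 months. At 18 against 14 months 12.5% were lower. The 10 genes of the adipose fibroblast and progenitor list averaged 7.48 to 7.56 on epididymal arrays at 6 months, 9.13 to 9.48 at 14 months and 7.07 to 7.18 at 18 months. At 14 against 6 months 9 of the 10 rose and 0 fell, Pdgfra (2.66) and Sfrp2 (3.06) among them, and at 18 against 6 months 4 fell. Of the 10 endothelial markers 7 rose at 14 months and 8 fell at 18 months, and of the 9 mesothelial markers 7 rose and 5 fell. All 8 macrophage markers rose at 14 months, to list means of 9.78 to 10.16, against 7.57 to 7.88 at 6 months, and at 18 months 6 of the 8 were lower than at 6 months, with list means of 6.21 to 6.31. Of the 9 pericyte and smooth muscle markers 6 rose at 14 months, 8 were lower at 18 than at 14 months, and at 18 against 6 months 1 was higher and 2 were lower. The 8 mature adipocyte markers averaged 12.73 to 12.76, 12.36 to 12.54 and 12.70 to 12.78 at the 3 ages. The 8 neutrophil markers averaged 9.14, 5.29 and 5.21 on epididymal arrays at 6 months. At 14 and 18 months they averaged 4.72 to 5.13 and 6.64 to 7.14. The 5 erythroid markers averaged 7.43, 5.64 and 5.81 at 6 months, then 5.27 to 5.85 and 5.25 to 5.33. Replicate 1 at 6 months was thus highest of its group in both lists. The part of all such cells in the collagen changes was not tested.

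In bone marrow adipocytes fewer collagen genes changed with age. Against 6 months, 5 were lower at 14 months (11.4%, against 3.58% of all probe sets) and 0 higher (5.08% of all, and 0 also at an unadjusted p under 0.05 and by ordinary analysis of variance), and at 18 months 6 were lower (13.6%, against 5.13% of all) and 1 higher (3.37% of all). Between 14 and 18 months 0 collagen genes passed in either direction, where 4.75% of all probe sets were higher and 8.23% lower. At an unadjusted p under 0.05, 1 was higher and 4 lower, and ordinary analysis of variance called 0. The calls rest on the error shared by all 6 groups: in a fit of the compared groups alone 0 collagen genes passed at 14 or at 18 months. Col1a1 read 8.23, 10.37 and 9.01 at 6 months, 8.11, 7.55 and 7.97 at 14 months and 8.14, 7.93 and 7.78 at 18 months. The 3 youngest arrays thus span more than 2 log2 units, the older ages lay below all of them, and the changes were -1.32 (adjusted p = 0.0177) and -1.25 (adjusted p = 0.0257). Without the 6-month replicate 2 they were -0.74, still called, and -0.67, not called. The first was also lost without bone marrow 14-month replicate 2 (-1.16) or replicate 3 (-1.37), and the second without any 1 of the 18-month replicates.

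Col1a2 followed with 8.47, 9.82 and 9.19, then 8.91, 7.68 and 8.19, then 8.05, 8.28 and 8.52, overlapping between ages. Its change of -0.90 at 14 months (adjusted p = 0.0491) was lost in 24 of 30 alternatives, -0.57 without bone marrow 6-month replicate 2 among them. Col6a1 read 7.47, 7.80 and 7.44, then 7.01, 6.30 and 6.75, then 6.54, 6.72 and 6.87, with no overlap of either older age with 6 months. It was 1.84-fold lower at 14 months (-0.88, adjusted p = 0.002) and 1.81-fold lower at 18 months (-0.86, adjusted p = 0.00363), and each call was lost only in the fit of the compared groups alone. Col8a1 read 7.18, 7.23 and 7.06, then 6.82, 5.81 and 6.26, then 6.27, 6.03 and 6.16, and was lower at both older ages (-0.86 and -1.002). The first call was lost without bone marrow 6-month replicate 1 (-0.85) or 2 (-0.82) and without 14-month replicate 2 (-0.62) or 3 (-0.85), and the second without 18-month replicate 2 (-0.94).

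The basement membrane pair fell by smaller steps. Col4a1 read 6.83, 7.10 and 6.89 at 6 months, 6.71, 6.21 and 6.41 at 14 months and 6.48, 6.24 and 6.15 at 18 months (changes of -0.50 and -0.65, both called, the first not without bone marrow 6-month replicate 2 (-0.42) or 14-month replicate 2 (-0.38) or 3 (-0.48)). Col4a2 read 6.25, 6.73 and 6.60, then 6.38, 6.23 and 5.96, then 5.99, 5.88 and 5.81, with -0.34 and -0.63, the second called (adjusted p = 0.00893). Col6a3 was lower at 18 months (6.13, 6.70 and 6.03 at 6 months, 5.99, 6.04 and 5.83 at 14 months, 5.61, 5.76 and 5.65 at 18 months, change -0.62), a call lost without bone marrow 6-month replicate 2 (-0.41) and without each of the 18-month replicates (-0.66 to -0.58). The 1 rise was that of Col14a1, which read 5.48, 5.76 and 5.44 at 6 months, 6.07, 5.90 and 5.91 at 14 months and 5.99, 7.13 and 6.42 at 18 months. All older arrays lay above the 6-month arrays, and the change at 18 months was 1.94-fold (0.96, standard error 0.19, adjusted p = 0.00585). The 6-month mean of Col14a1 (5.56) lay below that of the median tested probe set in bone marrow (5.96). So did the 18-month means of Col6a3 (5.67) and Col4a2 (5.89). These means are not shown to be above background.

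The other main chains were not called at any age step in bone marrow. Col3a1 read 6.40, 6.71 and 6.81 at 6 months, 6.55, 6.24 and 6.16 at 14 months and 6.31, 6.25 and 6.41 at 18 months. Col15a1 read 5.74, 5.73 and 5.27, then 5.67, 6.00 and 5.14, then 5.52, 5.60 and 5.95, and its ages overlapped throughout. Col6a2 read 7.30, 7.16 and 6.98, then 6.94, 6.41 and 6.76, then 6.35, 6.87 and 6.73, with both older ages below the 6-month arrays. For the type V chain Col5a1 the arrays read 6.65, 6.72 and 6.56, then 6.68, 6.57 and 6.49, then 6.10, 6.41 and 6.55 in the same order of ages. Those of Col5a2 were 5.72, 6.18 and 5.87, then 6.07, 5.69 and 5.59, then 5.80, 5.85 and 5.70. For Col18a1 they were 6.14, 5.89 and 5.74, then 5.94, 5.79 and 5.55, then 5.70, 5.76 and 5.82, against 8.96, 8.78 and 8.76, then 8.58, 8.63 and 8.58, then 8.58, 8.58 and 8.43 in epididymal adipocytes.

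Beside these falls, the osteoblast gene Ibsp, bone sialoprotein, read 10.05, 9.72 and 9.55 in bone marrow at 6 months, 8.84, 7.98 and 8.43 at 14 months and 7.62, 7.98 and 7.99 at 18 months, and stayed at 4.13 to 5.06 on all epididymal arrays. The 6 osteoblast markers averaged 6.02 to 6.31, 5.64 to 6.00 and 5.64 to 5.67 on the bone marrow arrays of the 3 ages, with 1 of 6 falling at 14 months and 2 of 6 at 18 months. Of the 10 endothelial markers 7 fell at each age, and of the 6 marrow stroma markers 3 fell at each age (medians -0.80 and -0.60). Of the 9 pericyte and smooth muscle markers 1 fell at 14 and 3 at 18 months, and of the 8 mature adipocyte markers 1 and 3. The share of all probe sets that fell was 3.58% at 14 and 5.13% at 18 months. Sost and Dmp1, known from osteocytes, had differences of -0.05 and 0.07 between the cell types and were not called. Phex, of the same list, read 5.15 to 5.94 on the bone marrow arrays and 3.81 to 4.36 on the epididymal arrays. The part of these cells in the collagen values of marrow was not tested.

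**Figure D4:**
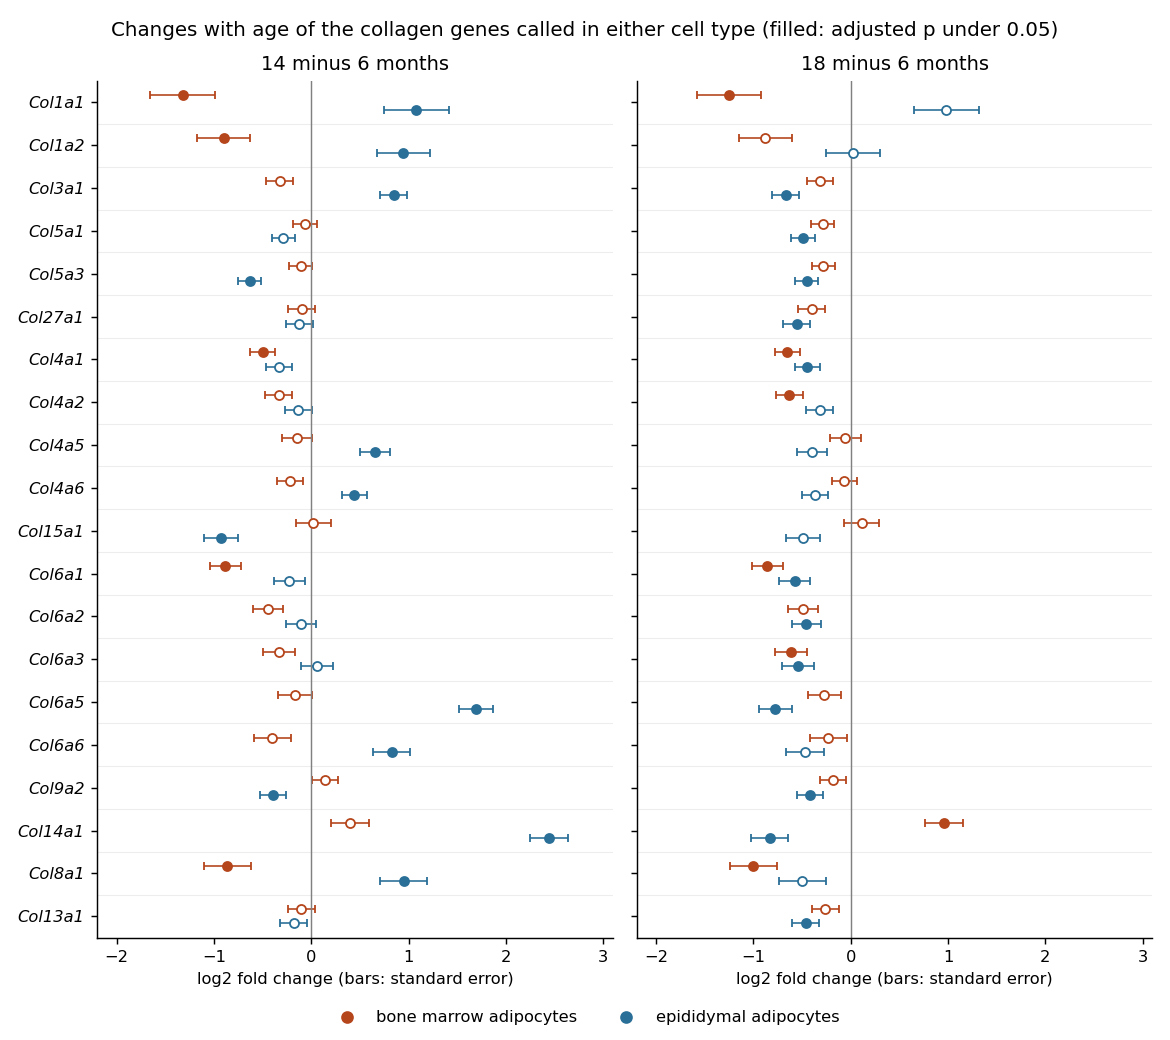
Log2 fold change with standard error at 14 against 6 months (left) and 18 against 6 months (right) for the 20 collagen genes called in either cell type, with bone marrow drawn above epididymal; filled points passed at an adjusted p under 0.05. At 14 months Col1a1, Col1a2 and Col8a1 passed as lower in bone marrow and higher in epididymal adipocytes, and at 18 months Col14a1 passed in opposite directions.

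The difference between the cell types in the age change was itself tested. For 14 against 6 months the change was lower in bone marrow than in epididymal adipocytes for 9 collagen genes (20.5%, against 6.53% of all probe sets) and higher for 2 (4.55% against 5.07%). Col1a1 led with -2.40 (standard error 0.47, adjusted p = 0.00192), made of -1.32 in bone marrow and 1.08 in epididymal adipocytes. Col14a1 had -2.04, Col6a5 -1.86, Col1a2 -1.85, Col8a1 -1.81, Col6a6 -1.23, Col3a1 -1.17, Col4a5 -0.80 and Col4a6 -0.66. Col15a1, with changes of 0.02 in bone marrow and -0.93 in epididymal adipocytes, had 0.95, and Col5a3 had 0.53, a call lost in 20 of 29 alternatives. That of Col4a5 was lost without epididymal 6-month replicate 1 (-0.74) and, at 14 months, without replicate 3 of either cell type (-0.65 for bone marrow, -0.69 for epididymal), and that of Col4a6 without any of 5 arrays (-0.64 to -0.52). For 18 against 6 months 1 gene passed in each direction (5.02% of all probe sets lower and 3.49% higher): Col1a1 at -2.23 (adjusted p = 0.00646) and Col14a1 at 1.79 (adjusted p = 4.99e-04). Both calls held in every alternative run for them. For 18 against 14 months 7 passed as higher in bone marrow (15.9%, against 7.74% of all) and 0 as lower (8.06% of all; 1 at an unadjusted p under 0.05 and 0 by ordinary analysis of variance), with Col14a1 at 3.83, Col6a5 at 2.36, Col3a1 at 1.52, Col6a6 at 1.47, Col8a1 at 1.31, Col4a5 at 1.14 and Col4a6 at 0.96. These contrasts share arrays with the changes within each cell type and are no separate evidence of them.

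Genes whose products fold, cut, cross-link, bind or sense collagen were read from 5 lists. Over the ages, where calls again needed a change of at least 2-fold, 11.6% of all probe sets were lower in bone marrow and 10.2% higher. A collagen chain is hydroxylated and folded in the endoplasmic reticulum, and 10 of 20 genes of that list were lower in bone marrow over the ages, 0 higher, with a median of -0.99. Fkbp14 (-3.15) and Fkbp7 (-2.72) encode folding enzymes, and Serpinh1 (-3.00) the collagen chaperone Hsp47. Of 11 genes for propeptide cleavage and cross-linking 4 were lower (median -0.90), with Pcolce2, an enhancer of propeptide cleavage, at -4.70, and the cross-linking enzymes Lox at -3.09 and Loxl1 at -1.85.

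Proteins that sit on fibrils were lower for 8 of 10 genes (median -3.10), among them dermatopontin Dpt (-7.54), Prelp (-5.08) and decorin Dcn (-4.79). The basement membrane partners of type IV collagen were lower for 10 of 15 (median -3.38), among them nidogen Nid1 (-5.23), Pxdn (-5.19), the enzyme that cross-links type IV collagen, and the laminin chain Lama4 (-5.14). Of 10 receptors and uptake genes 6 were lower and 2 higher. Lower were the uptake receptor Mrc2 (-3.07) and the collagen receptor kinase Ddr2 (-2.82), and higher were Lair1 (2.88), an inhibitory collagen receptor of leukocytes, and Itga2 (1.49), the collagen integrin chain of platelets. All 8 neutrophil and all 4 megakaryocyte and platelet markers were higher in bone marrow. The erythroid list averaged 10.31 to 11.41 on bone marrow arrays and 5.25 to 7.43 on epididymal arrays. For the B-lineage list these ranges were 7.60 to 9.15 and 5.05 to 6.42. The part of blood cells in the receptor values was not tested.

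In epididymal adipocytes at 14 against 6 months, 7 of 10 fibril-binding genes rose and 0 fell (median 1.54), with fibronectin Fn1 at 2.82, lumican Lum at 2.06 and biglycan Bgn at 2.02. The folding list had 5 of 20 higher, P3h4 (0.68), Plod2 (0.58) and Ppib (0.57) among them, the cleavage and cross-linking list 5 of 11, with Pcolce at 1.70 and Loxl1 at 1.26, and the receptor list 4 higher and 1 lower, with Ddr2 at 1.42 and Mrc2 at 1.27. The basement membrane partners split, 3 rising and 2 falling of 15, with Lama2 at 1.95 and Pxdn at -0.51. Of all probe sets 10.2% rose and 7.51% fell at this step, and 8.22% and 8.01% at 18 against 6 months. At 18 against 6 months Fn1 (-1.46) and the tenascin Tnxb (-1.34) were lower, Ogn (1.12), Mrc2 (1.18) and Pcolce2 (0.70) were higher, and 5 of the 15 basement membrane partners were lower, Hspg2 (perlecan, -0.86) and Lama2 (-0.83) among them.

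Set against 6 months, the same lists in bone marrow held falls and no rise. Of all probe sets 3.58% were lower and 5.08% higher at 14 months, and 5.13% and 3.37% at 18 months. At 14 months 4 of 10 fibril-binding genes were lower, with Bgn at -1.27, Sparc at -1.24 and Dcn at -1.04, and 3 of 20 folding genes, 3 of 11 cleavage and cross-linking genes, 2 of 15 basement membrane partners and 2 of 10 receptors. At 18 months Sparc (-1.78), Bgn (-1.42), Pcolce (-1.12), Ddr2 (-1.08) and Serpinh1 (-1.06) were lower. No test set these lists against other genes.

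Chains encoded side by side were looked at for opposite movements. In none of Col3a1 with Col5a2, Col4a1 with Col4a2, Col4a3 with Col4a4, Col4a5 with Col4a6 and Col6a1 with Col6a2 did a contrast called for both go in opposite directions. On chromosome 9, Col6a5 and Col6a6 rose by 1.69 and 0.83 in epididymal adipocytes at 14 against 6 months, both called. Their neighbour Col6a4 had -0.24, not called, with overlapping arrays (5.30 to 5.80 at 6 months, 5.28 to 5.40 at 14 months). The neighbours differed in size in places: in epididymal adipocytes Col3a1 changed by 0.85 at 14 months and -0.67 at 18 months, and Col5a2, next to it on chromosome 1, by 0.11 and -0.05. Col5a2 read 8.48, 8.44 and 8.39 at 6 months, 8.85, 8.30 and 8.49 at 14 months and 8.37, 8.42 and 8.36 at 18 months, so its ages overlapped at each step. Over the 6 group means, the chains with the pattern most like that of Col1a1 were Col12a1 (Pearson r = 0.989), Col1a2 (0.979) and Col6a1 (0.952), and those most like Col4a1 were Col4a2 (0.999), Col6a2 (0.999) and Col18a1 (0.998). All 6 points share the gap between the cell types, which carries most of each correlation.

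In epididymal adipocytes at 18 against 14 months Col8a2 dropped by 0.76 on the log2 scale, a call lost in 2 of 29 alternatives, and Col28a1 dropped by 0.40, a call lost in 9 of 29. Col16a1 (-0.50), Col27a1 (-0.43) and Col4a4 (-0.33) were called there too, as were Col4a6 (-0.81) and Col6a3 (-0.60). Col8a2 read 6.26, 6.43 and 6.71 at 18 months and 7.55, 7.17 and 6.95 at 14 months. The loss of its call came without epididymal 14-month replicate 1 (-0.60) or 18-month replicate 1 (-0.65). Col13a1, Col17a1, Col23a1 and Col25a1 span the membrane and had -0.26, -0.21, -0.41 and -0.18 between the cell types, Col19a1, Col20a1 and Col22a1 of the FACIT group -0.20, -0.03 and -0.03, Col8a2 -0.23, and Col26a1 and Col28a1 -0.10 and -0.45. None of the 4 transmembrane genes changed at 14 months in either cell type, and Col13a1 was the only one of them called at 18 months. Col10a1 and Col19a1 were the 2 genes that did not pass a filter on low values.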

How the data were processed

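RNA of floated adipocytes was measured on 18 Affymetrix Mouse Gene 1.0 ST arrays, 3 for each of 6 groups given by the deposited labels. The authors summarised the probes with GC-corrected robust multi-array averaging (gcRMA) in Partek, quantile normalized them and deposited the result on the log2 scale, and no further normalization was applied in the principal analysis. Quantile normalization gives the arrays nearly the same distribution, so a shift of the whole transcriptome would not be seen. The table held 35556 probe sets, of which 23410 were annotated to a gene and were tested. Among the 23410, 1621 named several genes. These stayed in the tests and in the shares of all probe sets, and were left out only where a probe set was chosen for a gene. No column was without a sample.

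A model with 1 mean per group was fitted over all 18 arrays with limma 3.58.1 in R 4.3.3, with moderated statistics and Benjamini-Hochberg adjustment over all 23410 probe sets. Adjusted p-values in the text are from that fit unless another is named. Calls needed an adjusted p under 0.05 and, between cell types, a change of at least 2-fold. The fit was tested on simulated data. Since the pools may share animals, p-values measure the spread between these pools. The precision is limited by 3 arrays a group.

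The collagen genes and the pathway and marker lists were chosen with earlier results of these data known, and 162 of 186 listed names matched 1 gene. Values on every array were given for the main fibril, network and filament chains and for the called chains with the largest changes, up to 3 a direction. Up to 3 called genes were named per pathway list and contrast. Promoter windows were read from RefSeq (GRCm38.p6) by symbol, and figures were drawn with Python 3.11.15. Alternatives covered scaling, filters, array weights, the samples in the fit and leaving out each array. The arrangement of the chains' protein repeats was not analysed here.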

Additional observations from a re-analysis of the deposited data

Results flagged for a closer look

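The change with age differed between bone marrow and epididymal adipocytes, by a test of the difference itself, in 20 cases. The test was limma over all 18 arrays, each contrast setting 4 groups of 3 arrays against each other. For 14 against 6 months the difference, bone marrow change minus epididymal change on the log2 scale, was -2.40 for Col1a1 (adjusted p = 0.00192), -2.04 for Col14a1 (4.49e-05), -1.86 for Col6a5 (3.62e-05), -1.85 for Col1a2 (0.00349) and -1.81 for Col8a1 (0.00132). It was -1.23 for Col6a6 (0.00488), -1.17 for Col3a1 (3.59e-04), -0.80 for Col4a5 (0.024), -0.66 for Col4a6 (0.0241), 0.95 for Col15a1 (0.0158) and 0.53 for Col5a3 (0.0465). The 6-month bone marrow arrays of Col1a1 spread from 8.23 to 10.37, and without replicate 2 its change in bone marrow was -0.74. For 18 against 6 months it was -2.23 for Col1a1 (0.00646) and 1.79 for Col14a1 (4.99e-04). For 18 against 14 months it was 3.83 for Col14a1 (2.40e-08), 2.36 for Col6a5 (2.20e-06), 1.52 for Col3a1 (1.94e-05), 1.47 for Col6a6 (8.80e-04), 1.31 for Col8a1 (0.012), 1.14 for Col4a5 (0.00145) and 0.96 for Col4a6 (0.00125). The 14-month epididymal arrays enter 18 of these 20 values. Of the 6 groups, theirs had the highest mean of the adipose fibroblast and progenitor list. The same held for the endothelial, mesothelial, macrophage, and pericyte and smooth muscle lists. The part of such cells in these values was not tested.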

How the results depend on the processing

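No called value turned its direction under any alternative run. Between the cell types, the count of 16 called collagen genes over the ages became 29 with no fold limit and that of 17 at 6 months became 31 with ribosomal protein genes set equal. In bone marrow at 14 against 6 months, 5 calls became 2 with ribosomal protein genes set equal, 2 by ordinary analysis of variance, 3 with all probe sets tested and 0 with the compared groups alone, and at 18 against 6 months 7 became 4 by analysis of variance and 0 with the compared groups alone. At 18 against 14 months 0 became 1 with ribosomal protein genes set equal and 1 with array weights. In epididymal adipocytes at 18 against 6 months, 12 became 5 with median centring and 25 with array weights, and at 18 against 14 months 14 became 22 with array weights. The cause of these changes was not tested.

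Leaving out 1 array in turn gave 16 to 16 calls over the ages, 16 to 17 at 6, 18 to 20 at 14 and 14 to 14 at 18 months, 1 to 6 for bone marrow at 14 against 6 months, 5 to 10 at 18 against 6 and 0 to 1 at 18 against 14. For epididymal adipocytes it gave 8 to 12, 5 to 16 and 8 to 15 for the same steps, and for the difference of changes 9 to 11, 2 to 3 and 7 to 9. No source ties replicate numbers across the cell types, and same-numbered arrays correlated at -0.14 to 0.15 in their deviations, with 1 of 9 pairs over 0.1. With the replicate block, where same-numbered arrays share a term, the counts were 16, 17, 19 and 14 between cell types, 4, 7 and 0 in bone marrow, 12, 11 and 14 in epididymal adipocytes and 10, 2 and 7 for the differences. The 14-month epididymal arrays were left out as an alternative chosen after seeing the data, with 14 calls in the mean of 6 and 18 months. In both cell types 13 collagen genes had a mean below that of the median tested probe set, so a fall of theirs could be understated, and 3 arrays a group limit the precision.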

Other observations

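Fibronectin, encoded by Fn1 and needed for the first assembly of collagen fibrils, did not share the low marrow values of most fibril-binding genes. Its arrays read 10.61, 9.66 and 10.49 in bone marrow at 6 months against 9.30, 9.07 and 8.85 in epididymal adipocytes, a difference of 1.18 (limma, adjusted p = 2.79e-05). At 14 months they read 10.504, 10.63 and 10.56 against 11.98, 11.85 and 11.85 (-1.33), and at 18 months 10.25, 9.87 and 10.12 against 7.59, 7.46 and 7.77 (2.47). The direction thus turned at 14 months, where the epididymal arrays were highest. Biglycan, encoded by Bgn, was also higher in bone marrow at 6 months (1.35, adjusted p = 7.06e-04) and lower at 14 months (-1.94). Both genes were singled out after their values were seen.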
